A study of Homo sapiens with 2 samples.

Results

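A group of 30 transcripts carried nearly all of their ZC3H7A and ZC3H7B contacts in the 3' untranslated region (3' UTR), the part of a messenger RNA that follows the stop codon. They were selected on measured cluster counts, as the genes with at least 15 binding clusters in each library and at least 90% of those clusters in the 3' UTR in each. They are 30 of 856 genes with 15 or more clusters in both libraries (3.50%) and of 7218 genes listed in both. Because the region counts chose them, their high 3' UTR shares are a description and not a result. ZC3H7A and ZC3H7B are CCCH zinc finger RNA-binding proteins, and the series asks how they control messenger RNA translation and stability according to codons. Their RNA contacts were recorded by PAR-CLIP, in which a photoreactive nucleoside is built into RNA, crosslinked to protein by light and recovered by immunoprecipitation, in HEK293 cells, a line from human embryonic kidney. In both groups a Flag/HA-tagged protein was overexpressed after 24 h of doxycycline at 1 µg/mL, 100 µM 4-thiouridine was given for 16 h, and cells were irradiated at 365 nm. The groups differ in the tagged protein, ZC3H7A or ZC3H7B, with 1 library each. There was no replicate and no control library, so differences between the libraries were not tested. The labels describe culture of HEK293 and of Flp-In T-REx 293 cells without saying which carried the tagged proteins. RNA levels were not analysed here, so markers of the line could not be checked, and more binding and more transcript cannot be told apart in read counts.

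A crosslinked 4-thiouridine is read as a T-to-C conversion, and overlapping reads are grouped into clusters. The 3' UTR is the main site at which microRNAs and many RNA-binding proteins act on messenger RNA stability, localisation and translation. Ribosomes translate the coding sequence and normally leave the messenger RNA at the stop codon, so proteins on the 3' UTR are not displaced by elongating ribosomes. The deposited tables give cluster numbers per region for each gene and no positions, so no site sequence is shown.

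Genes took 3779662 reads in 51808 clusters for ZC3H7A and 2409465 reads in 99805 clusters for ZC3H7B. These were made of 300342 and 1212989 distinct reads, so each distinct read was counted 12.6 and 1.99 times on average. The transcript of each tagged gene took a larger share of reads in its own library, 2.19% against 0.00656% for ZC3H7A and 0.156% against 0.0360% for ZC3H7B. Over all genes 39.8% of ZC3H7A clusters and 55.8% of ZC3H7B clusters lay in the 3' UTR. Intervals below are exact 95% intervals for counting error only, and PCR copies make those on reads too narrow even for that.

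For ZC3H7A the 30 genes held 804 clusters, and 759 lay in the 3' UTR (94.4%, 92.6 to 95.9%). For ZC3H7B 1362 of 1422 clusters lay there (95.8%, 94.6 to 96.8%). The clusters outside the 3' UTR, 45 and 60, were mostly coding, with 34 and 46 in coding sequence. Stop codons held 5 and 7, start codons 2 and 1, 5' UTRs 2 and 2, and introns 1 and 2, while 1 and 2 had no named region. In the other 826 well-covered genes, those with 15 or more clusters in both libraries, coding sequence held 41.7% and 31.7% of clusters and introns 5.73% and 6.65%.

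NIPA1, a magnesium transporter of endosomes and the plasma membrane, was the only gene with every cluster in the 3' UTR in both libraries, 15 of 15 and 50 of 50. Every cluster lay there in the ZC3H7A library alone for HNRNPA3, BTF3L4, LPP and ITPRIPL2, and in the ZC3H7B library alone for GNG12, SREK1IP1, SFT2D2 and PHACTR2. In the ZC3H7A library 18 of the 30 genes had at most 1 cluster elsewhere, and 16 did in the ZC3H7B library. Between libraries, 16 genes had the higher 3' UTR share for ZC3H7B, 12 for ZC3H7A, and 2 had equal shares.

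The minimum number of clusters bore mostly on the ZC3H7A library, where 16 of the 30 genes had 20 clusters or fewer. With so few clusters a share is loosely known: 14 of 15 clusters, as in TMED7, MED28 and BLOC1S6, is 93.3% with an interval of 68.1 to 99.8%. The share of 90% was met narrowly by SFT2D2 (18 of 20 clusters for ZC3H7A, 90%) and DYNLL2 (39 of 43 in the ZC3H7B library, 90.7%). SREK1IP1 (33 of 36) and TMED8 (22 of 24), both at 91.7% for ZC3H7A, were also near it. CDK6, the cell cycle kinase, missed it most narrowly, with 26 of 29 clusters (89.7%) for ZC3H7A and 58 of 59 for ZC3H7B. FOXN3 and ZMAT3 had 16 of 18 (88.9%) in the ZC3H7A library, and the splicing regulator gene MBNL1 had 16 of 18 there and 23 of 26 (88.5%) in the ZC3H7B library.

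Taken library by library, the rule selected more genes for ZC3H7B. For ZC3H7A it was met by 38 of the 908 genes with 15 or more clusters (4.19%), and for ZC3H7B by 383 of 2450 (15.6%). Of those 383 genes, 91 had 15 or more clusters in the ZC3H7A library too, 280 had fewer and 12 were not listed there. The 30 genes are 78.9% of the 38 and 7.83% of the 383.

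**Figure D1:**
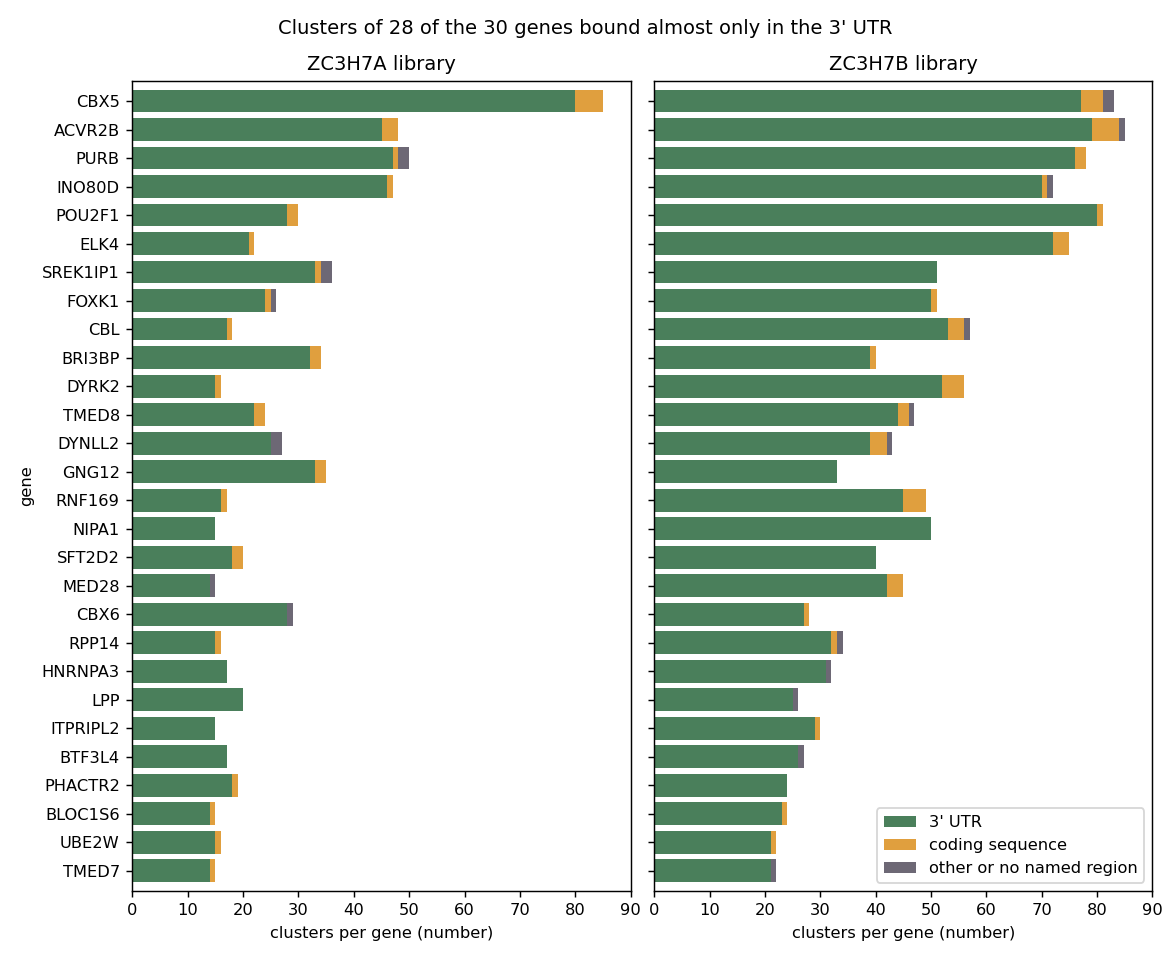
Clusters per gene (number, horizontal axis) of 28 of the 30 genes in the ZC3H7A library (left) and the ZC3H7B library (right), coloured by region, with genes ordered by clusters summed over both. CBX5 has 85 and 83 clusters and TMED7 15 and 22, and the green 3' UTR part makes up at least 90% of each bar.

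Cluster numbers ranged from 15 to 85 (median 20) for ZC3H7A and from 22 to 85 (median 46) for ZC3H7B. In 27 of 30 genes the ZC3H7B library had more clusters, and CBX5, GNG12 and CBX6 had more in the ZC3H7A library. The ZC3H7B library also had more clusters over all genes, 99805 against 51808. Centred on the 7168 genes compared below, the 30 genes had log2 cluster ratios, ZC3H7B over ZC3H7A, above 0 in 13 and below in 17. Among the other 826 well-covered genes these numbers were 156 and 668. The other 826 well-covered genes had medians of 21 and 31.5 clusters. By these medians the 30 genes were close to the others in the ZC3H7A library and higher in the ZC3H7B library. The selection used cluster numbers in both libraries, so this is a description. Across the 30 genes, log2 cluster numbers of the libraries had a Pearson's r of 0.60 (n = 30 genes), beside 0.59 across the other 826. These genes share both libraries, so r is a description.

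Reads ranged from 481 to 15903 per gene for ZC3H7A (median 1061) and from 266 to 7035 for ZC3H7B (median 1070.5). Together they drew 1.62% (1.61 to 1.63%) of all ZC3H7A reads and 1.75% (1.74 to 1.77%) of all ZC3H7B reads. They held 3.68% and 2.44% of all 3' UTR clusters, shares that the selection on cluster numbers raises. CBX5 alone carried 26.0% and 16.7% of the reads of the 30 genes, and without it they took 1.20% and 1.46% of the libraries.

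To compare the libraries gene by gene, the log2 ratio of reads, ZC3H7B over ZC3H7A, was centred on its median over the 7168 genes that had 20 or more reads in both libraries together. A gene was called higher in a library where its whole interval lay beyond 2-fold. Called higher in the ZC3H7B library were 18.2% of these 7168 genes and 7.94% of the 856 well-covered ones. For the ZC3H7A library these shares were 18.0% and 18.1%. The genes are taken below by the role of the encoded protein, a grouping made for description only.

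Genes of chromatin and transcription made up 8 of the 30 and included the most heavily covered. CBX5 encodes heterochromatin protein 1 alpha, which binds methylated histone H3. It had 15903 ZC3H7A reads and 7035 ZC3H7B reads, ranked 8 by reads in both, and had more clusters than any other gene of the ZC3H7A library. Its 80 of 85 and 77 of 83 clusters in the 3' UTR gave 94.1% (86.8 to 98.1%) and 92.8% (84.9 to 97.3%). Its log2 ratio was -0.68 (-0.72 to -0.64), short of 2-fold. CBX6 encodes a chromobox subunit of a Polycomb repressive complex. It had 1591 and 1546 reads, 28 of 29 and 27 of 28 clusters in the 3' UTR, and a log2 ratio of 0.45 (0.35 to 0.55).

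PURB, which encodes a single-stranded DNA- and RNA-binding protein, had 4682 and 4058 reads in 50 and 78 clusters, with 47 and 76 in the 3' UTR. Its log2 ratio was 0.29 (0.23 to 0.35). INO80D, a subunit of the INO80 chromatin remodelling complex, had 46 of 47 and 70 of 72 clusters in the 3' UTR. It had 3272 ZC3H7A reads and 1139 ZC3H7B reads, for a log2 ratio of -1.03 (-1.13 to -0.93). These genes lay on both sides of the median gene. None of the 4 was called, beside 7.94% of well-covered genes called higher in the ZC3H7B library and 18.1% in the ZC3H7A library.

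The sequence-specific transcription factors all had ratios above 0. ELK4, an ETS factor that works with serum response factor, had 770 ZC3H7A reads and 1352 ZC3H7B reads, with 21 of 22 and 72 of 75 clusters in the 3' UTR. Its log2 ratio of 1.30 (1.18 to 1.43) was beyond 2-fold. FOXK1, a forkhead factor, had 747 and 1237 reads and a log2 ratio of 1.22 (1.09 to 1.35), also beyond 2-fold. It had 24 of 26 and 50 of 51 clusters in the 3' UTR. POU2F1, the octamer-binding factor also called Oct-1, had 1506 and 1789 reads and 28 of 30 and 80 of 81 clusters there. At 0.74 (0.64 to 0.84) it was not called. MED28, a subunit of the Mediator complex that links transcription factors to RNA polymerase II, had 634 and 857 reads and stood at 0.93 (0.78 to 1.08). Its single cluster outside the 3' UTR in the ZC3H7A library lay at the start codon.

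The genes of RNA processing and protein synthesis numbered 4. None was called in either direction, beside the 7.94% and 18.1% of well-covered genes given above. HNRNPA3, a nuclear RNA-binding protein of the hnRNP A/B family, had 17 of 17 and 31 of 32 clusters in the 3' UTR with 1133 and 1002 reads. Its log2 ratio was 0.32 (0.19 to 0.44) by reads and -0.02 (-0.31 to 0.28) by distinct reads, so its side depended on the count. SREK1IP1, named for its binding to the splicing regulator SREK1, had 2509 and 1214 reads and 33 of 36 and 51 of 51 clusters there, with a log2 ratio of -0.55 (-0.65 to -0.46). RPP14, a subunit of ribonuclease P, had 822 and 707 reads and 15 of 16 and 32 of 34 clusters in the 3' UTR. The RefSeq gene table of assembly GRCh38.p14 gives RPP14 and HTD2, a mitochondrial dehydratase gene, the same span, and the RPP14 transcript is known to carry the HTD2 reading frame downstream of its own. Clusters counted in its 3' UTR could therefore include that reading frame. BTF3L4, a relative of the beta subunit of the nascent polypeptide-associated complex, had 856 and 790 reads and 17 of 17 and 26 of 27 clusters in the 3' UTR.

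Pseudogenes bear on some of these values. In RefSeq 9 of the 30 genes have pseudogenes named after them, 36 in all, of which HNRNPA3 has 17 and MED28 has 8. The ZC3H7A table lists 3 copies of HNRNPA3 and 1 of BTF3L4, and the ZC3H7B table lists 0 of the 36. Reads of these genes are uncertain between the gene and its copies.

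The signalling genes held the farthest ratios at both ends. GNG12 encodes a gamma subunit of heterotrimeric G proteins. It had 4695 ZC3H7A reads and 738 ZC3H7B reads, and its log2 ratio was -2.18 (-2.29 to -2.06), or 4.52-fold. No other gene of the 30 was called higher in the ZC3H7A library. The uncentred number of clusters was nearly the same, 35 and 33, of which 33 and 33 lay in the 3' UTR. Centred on the median gene, GNG12 had a log2 ratio of clusters of -1.01 (-1.74 to -0.28). By distinct reads, 404 and 413, its log2 ratio was -2.02 (-2.23 to -1.82). DYRK2, a dual-specificity protein kinase, lay at the other end, with 725 and 1395 reads and a log2 ratio of 1.44 (1.31 to 1.57), or 2.71-fold. It had 15 of 16 and 52 of 56 clusters in the 3' UTR.

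ACVR2B, a type II receptor for activins and related ligands, had 1870 and 2981 reads and was called higher in the ZC3H7B library at 1.17 (1.08 to 1.25). It had 45 of 48 and 79 of 85 clusters in the 3' UTR, and its 85 clusters were the most of the 30 genes in the ZC3H7B library, rank 13 among all genes there. PHACTR2, a regulator of protein phosphatase 1 and actin, had 695 and 266 reads, the fewest of the 30 in the ZC3H7B library, and a log2 ratio of -0.89 (-1.10 to -0.69). Its clusters in the 3' UTR were 18 of 19 and 24 of 24.

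Among the genes of the ubiquitin system, RNF169, a ubiquitin ligase of the DNA damage response, was called higher in the ZC3H7B library. It had 764 and 1440 reads in 17 and 49 clusters, with 16 and 45 in the 3' UTR, and a log2 ratio of 1.41 (1.28 to 1.54). CBL, a ubiquitin ligase for activated receptor tyrosine kinases, had 699 and 934 reads and 17 of 18 and 53 of 57 clusters there. It stood at 0.91 (0.77 to 1.05) and was not called. UBE2W, a ubiquitin-conjugating enzyme that acts on protein amino termini, had 757 and 313 reads and lay on the ZC3H7A side at -0.78 (-0.98 to -0.59). CBL had 57 ZC3H7B clusters against 18 for ZC3H7A, whereas UBE2W had 22 against 16, with 21 and 15 in the 3' UTR.

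Genes of membranes, transport and the cytoskeleton made up the other 10. None was called in either direction, beside the 7.94% and 18.1% of well-covered genes given above. TMED7, a cargo receptor of the early secretory pathway, had 1879 and 869 reads, 14 of 15 and 21 of 22 clusters in the 3' UTR, and a log2 ratio of -0.62 (-0.74 to -0.50). Its relative TMED8 had 989 and 973 reads, 22 of 24 and 44 of 47 clusters, and a log2 ratio of 0.47 (0.34 to 0.60). By reads these relatives lay on opposite sides of the median gene. By distinct reads they stood at -0.12 (-0.44 to 0.20) and 0.30 (-0.02 to 0.63), and both intervals held 0. SFT2D2, related to a yeast Golgi transport protein, had 1963 and 763 reads, 18 of 20 and 40 of 40 clusters, and a log2 ratio of -0.87 (-0.99 to -0.75) by reads but -0.16 (-0.48 to 0.17) by distinct reads.

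BLOC1S6, a subunit of a complex that forms lysosome-related organelles, had 850 and 603 reads and a log2 ratio of -0.0025 (-0.16 to 0.15), with 14 of 15 and 23 of 24 clusters in the 3' UTR. DYNLL2, a dynein light chain, had 1648 and 1175 reads and stood at 0.0048 (-0.10 to 0.11). By reads these were the only 2 of the 30 whose intervals held 0. By distinct reads the interval of DYNLL2 did not, at 0.34 (0.07 to 0.62). Those of several other genes did, PURB, BRI3BP and CBX6 among them. NIPA1 had 1221 and 1743 reads and a log2 ratio of 1.01 (0.90 to 1.11), just past 2-fold as an estimate but not over its whole interval. LPP, a focal adhesion protein with LIM domains, had 829 and 321 reads, 20 of 20 and 25 of 26 clusters in the 3' UTR, and a log2 ratio of -0.88 (-1.07 to -0.69). BRI3BP, a BRI3-binding membrane protein, had 2272 and 1959 reads and 32 of 34 and 39 of 40 clusters there, and stood at 0.28 (0.19 to 0.37). ITPRIPL2, a relative of a protein that binds the inositol trisphosphate receptor, had 539 and 502 reads and 15 of 15 and 29 of 30 clusters, and stood at 0.39 (0.21 to 0.57).

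Over the 30 genes the log2 ratio ran from -2.18 to 1.44 with a median of 0.30, and 19 of 30 were above 0. The other 826 well-covered genes had a median of -0.24 with 325 above 0 (39.3%). The interval for the median of the 30 genes was wide, from -0.55 to 0.74. Its ends are the ratios of SREK1IP1 and POU2F1, so it reflects spread between genes and not counting error. It held both 0 and -0.24. The interval treats genes that share 1 library per protein as independent, and these genes were selected on cluster counts. It therefore cannot decide for or against a shift of the 30 genes as a group, which was not tested. The genes called higher in the ZC3H7B library were 5 of the 30. Over all 7168 genes compared 18.2% were called so, and among the 856 well-covered genes, which include the 30, 7.94%. The 5 of 30 (16.7%) lie near the share of all genes. The other 826 well-covered genes had 7.63%. When ratios were centred on the well-covered genes, 12.1% of these 826 and 7 of the 30 were called so. In that second centring the median of the 826 was -0.0073 and that of the 30 was 0.53. These others had fewer ZC3H7B clusters, as given above. In the ZC3H7A library 1 of 30 was called higher (3.33%), beside 18.0% of all genes and 18.1% of the well-covered ones. In the second centring it was 1 of 30 and 13.9% of the other 826. With 30 genes of 1 library each these shares are descriptions and were not tested.

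The 5 calls for the ZC3H7B library did not hold in distinct reads, although the ratios stayed near or above 1. By that count the 30 genes had a median log2 ratio of 0.14, and the other well-covered genes -0.18. GNG12 kept its call in the ZC3H7A library, beside 10.1% of all genes and 10.3% of well-covered ones, and 0 of the 30 were called higher in the ZC3H7B library, where the background was 7.28% of all genes and 1.99% of well-covered ones. ACVR2B stood at 1.01 (0.81 to 1.23), RNF169 at 1.31 (0.96 to 1.68), ELK4 at 1.12 (0.80 to 1.46), DYRK2 at 1.15 (0.811 to 1.497) and FOXK1 at 0.95 (0.63 to 1.29). The side of 0 was the same by reads and by distinct reads for 28 of the 30 genes, all but HNRNPA3 and ITPRIPL2. Counted as clusters the median was -0.17, on the other side of 0, beside -0.47 for the other well-covered genes, and no gene of the 30 was called. Few genes were called by clusters at all, 0.321% of all genes higher in the ZC3H7B library and 0.223% in the ZC3H7A library. Of the other 826 well-covered genes these shares were 0% and 0.121%. Intervals for reads per cluster take the cluster numbers as fixed and leave out their counting error. By that quantity 3 of the 30 (ACVR2B, FOXK1 and CBX6) were called higher in the ZC3H7B library and 1, GNG12, in the ZC3H7A library. The backgrounds were 6.18% and 4.65% of all genes, and 13.4% and 3.50% of well-covered ones.

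The 9 genes with 30 or more clusters in the ZC3H7A library, among them CBX5, PURB and GNG12, had a median log2 ratio of -0.55, with 4 of 9 above 0. The 21 with fewer had a median of 0.39, with 15 of 21 above 0. In the other well-covered genes these medians were -0.41 and -0.19. The cluster number in the ZC3H7A library is part of the selection and tied to the denominator of the ratio, so this order is a description. Spearman's rho between that number and the ratio was -0.26 over the 30 genes and -0.11 over the 826 others.

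The median ratio of reads rose with the 3' UTR share over all well-covered genes. When genes were placed by the smaller of their shares in both libraries, the median log2 ratio was -0.50 for the 130 genes under 10% and -0.40 for the 171 from 10 to 30%. It was -0.29 for the 160 from 30 to 50%, -0.02 for the 197 from 50 to 70%, -0.01 for the 168 from 70 to 90% and 0.30 for the 30 genes from 90%. Medians by distinct reads were in the same order, from -0.39 to 0.14. Those by reads per cluster were not, with 0.42 from 70 to 90% and 0.30 from 90%. Those by clusters lay between -0.50 and -0.42 in the first 5 ranges and at -0.17 from 90%. The share of genes called higher in the ZC3H7A library was 25.4% under 10%, 29.2% from 10 to 30%, 10.7% from 70 to 90% and 3.33% from 90%. The share called higher in the ZC3H7B library was 4.62%, 2.34%, 14.9% and 16.7% in these ranges. Spearman's rho between 3' UTR share and ratio was 0.23 across the 856 genes, which share both libraries. Among the 30 genes alone it was -0.10. The 8 well-covered genes with 90% or more of their clusters in coding sequence in both libraries ran from -1.81 (CEBPZ) to 2.17 (FAT1, a large cadherin).

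**Figure D2:**
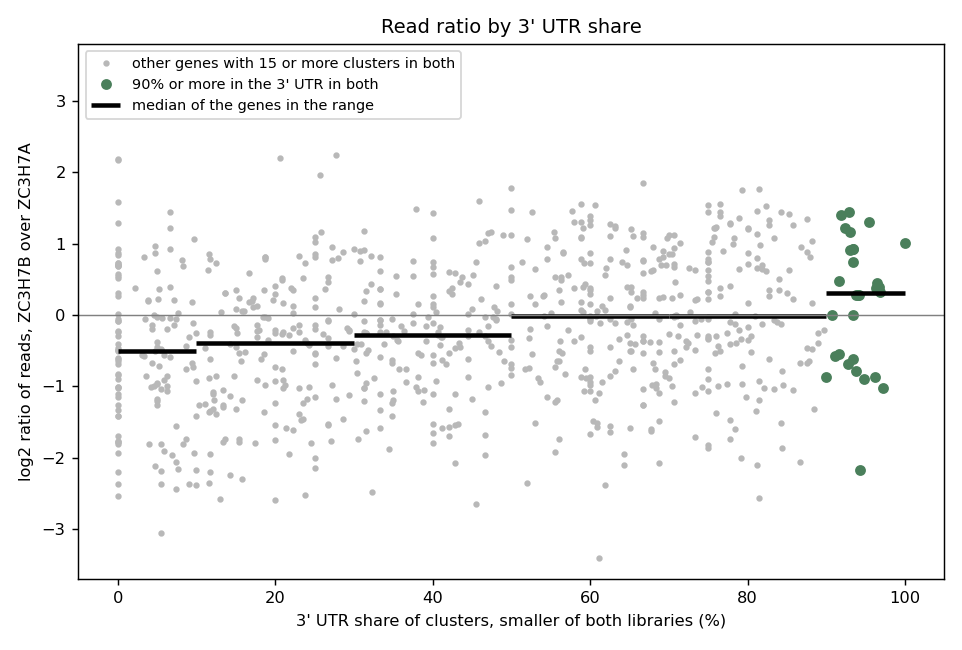
Log2 ratio of reads, ZC3H7B over ZC3H7A (vertical axis), against the 3' UTR share of clusters (%, the smaller of both libraries) for the 856 genes with 15 or more clusters in both. Green points are the 30 genes at 90% or more, and black lines are medians per range, from -0.50 at the left to 0.30 at the right; single genes spread over several log2 units in every range.

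Clusters of the 30 genes were thinner than those of the other well-covered genes in both libraries. The median gene had 50.9 ZC3H7A reads and 24.0 ZC3H7B reads per cluster, against 69.6 and 28.96 in the others. In distinct reads per cluster these medians were 4.74 and 12.7, against 5.75 and 14.9. CBX5 was an exception, with 187 and 84.8 reads per cluster, the highest of the 30 in each library, and GNG12 had 134 for ZC3H7A and 22.4 for ZC3H7B. The thinnest were FOXK1 in the ZC3H7A library (28.7) and PHACTR2 in the ZC3H7B library (11.1). Each distinct read was counted 7.93 (ITPRIPL2) to 19.1 (SFT2D2) times for ZC3H7A and 1.59 (INO80D) to 2.48 (NIPA1) times for ZC3H7B.

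T-to-C conversion was a measure that the selection did not use, and its medians on these genes were slightly below those of other genes. Averaged over the clusters of a gene, the share of reads with a conversion ran from 85.9 to 98.0% for ZC3H7A (median 92.0%) and from 85.3 to 91.6% for ZC3H7B (median 88.5%). The other well-covered genes had medians of 92.8% and 89.1%, and all 7168 genes compared had 96.6% and 90.6%. In 26 of 30 genes the share was higher in the ZC3H7A library, as it was in 699 of the 826 others. The highest averages over both libraries were on PHACTR2 (97.7% and 91.3%), BTF3L4 (98.0% and 90.3%) and SREK1IP1 (95.9% and 90.1%). The lowest were on ITPRIPL2 (86.7% and 86.4%), NIPA1 (85.9% and 87.8%) and CBX6 (88.5% and 87.6%). The median cluster had a conversion in 100% of reads on 23 of the 30 genes for ZC3H7A and on 1, LPP, for ZC3H7B, beside 550 and 38 of the 826 others. Clusters of the ZC3H7A library rest on fewer distinct reads, as given above, and its part in these values was not tested. Any conversion threshold of the cluster caller is not given in the sources used here.

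**Figure D3:**
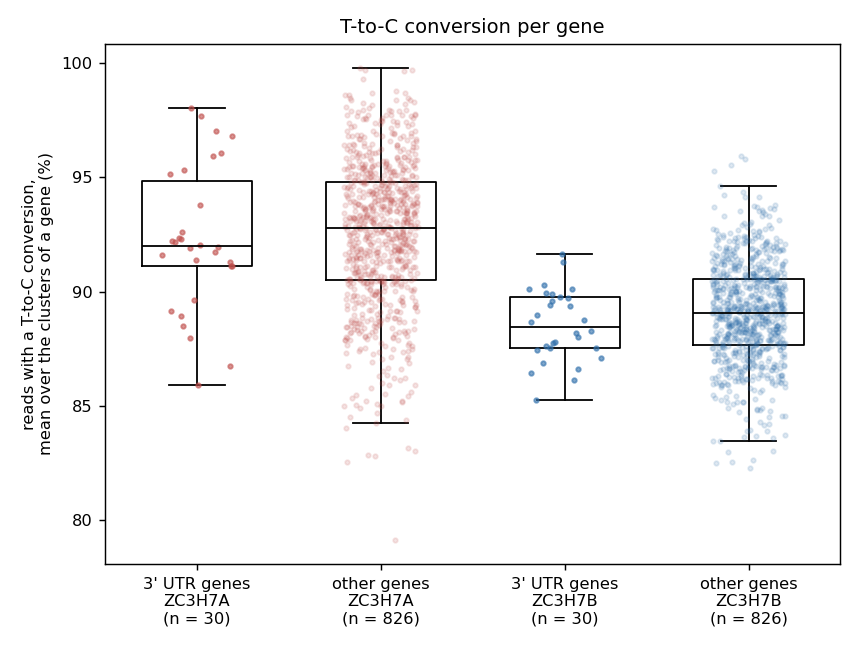
Reads with a T-to-C conversion, mean over the clusters of a gene (%, vertical axis), for the 30 genes and the other 826 well-covered genes in each library. Boxes span the quartiles with the median as a line, whiskers reach the last gene within the standard box-plot limit and points are genes. The medians of the 30 genes and the others are 92.0% and 92.8% for ZC3H7A and 88.5% and 89.1% for ZC3H7B.

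Of 11 gene lists by symbol, 6 had a member among the 30 genes, and these held 14 of them. Transcription factors other than C2H2 zinc finger proteins had 3 of 24 well-covered genes among the 30 (POU2F1, ELK4 and FOXK1), chromobox and other chromatin genes 2 of 20 (CBX5 and CBX6), and membrane traffic genes 3 of 34 (TMED7 and TMED8 among them). Ubiquitin system genes had 3 of 45 (RNF169, CBL and UBE2W) and kinases and phosphatases 2 of 42 (ACVR2B and DYRK2). Post-transcriptional regulators had 1 of 71 (HNRNPA3). The zinc finger genes of the ZNF and related families, the largest list, had 0 of 79. Solute carriers had 0 of 24, lipid metabolism genes 0 of 16, cyclins and cell cycle regulators 0 of 12 and immediate early genes 0 of 6. Over all well-covered genes the share was 3.50%. The lists overlap and were not tested. The median of the smaller 3' UTR share was 37.5% for the well-covered zinc finger genes, 32.1% for the post-transcriptional regulators, 62.5% for lipid genes and 68.6% for the other transcription factors, so lists without a member among the 30 were found at both low and high shares.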

How the data were processed

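Each library came as a gene table from the authors, whose counts are, per the file headers, clusters, reads and distinct reads summed over clusters, and clusters per region. For T-to-C conversion the deposited fraction is each gene's median cluster, and the deposited score is the sum over its clusters, which divided by the number of clusters gave the mean share. The submitters' processing notes name hg19, STAR 2.5.2a, Bowtie and cutadapt, without roles. Reads were 50 bp single ends after RNase T1, per the labels' protocols, with no molecular identifier described. The class column was not used for regions, because it named the 3' UTR for only 15 and 13 of the 30 genes. The exon column was read as coding sequence, since it matched the coding class in 2071 of 2071 and 1606 of 1606 genes with 1 cluster. Entries naming a repeat or small RNA class were left out (282 of 8486 and 407 of 9566). All 30 symbols matched RefSeq GRCh38.p14 as protein coding genes.

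Members, lists and named genes were chosen with earlier results of these data known. Of the 30 members 28 are named, and values of the other 2 are not reported here. The fixed rule took those with the most reads, the extreme ratios, shares, protein lengths and conversion, the genes beside the threshold, and the leading members of each list. Its part on protein length was not applied, since no protein table was used here. Log2 ratios have exact (Clopper-Pearson) 95% intervals, and the step was tested on simulated data. Alternatives changed the quantity, the scaling (total reads, TMM factors of edgeR 4.0.16 in R 4.3.3, used for no test), the filter and the member rule. Software was scipy 1.17.1, numpy 2.4.6, matplotlib 3.10.9 and pandas 2.3.3 under Python 3.11.15.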

Additional observations from a re-analysis of the deposited data

How the results depend on the processing

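The number of genes followed the thresholds: 61 with a minimum of 10 clusters, 16 with 20 and 9 with 30, 52 at a 3' UTR share of 85% and 8 at 95%. With clusters of a named region as the denominator it was 35, and with stop codon clusters added 30. The median log2 ratio stayed above 0 under every scaling tried (0.26 to 0.53), with distinct reads and with mean reads per cluster. It turned to -0.17 in clusters and to -0.55 for the 9 genes with 30 clusters, where fewer genes remain. Against the other well-covered genes the median was higher in every quantity. The difference was 0.54 in reads, 0.33 in distinct reads, 0.29 in clusters and 0.13 in mean reads per cluster. In reads, the interval for the median of the selected genes, -0.55 to 0.74, held 0 and the median of the others. It treats genes of the same libraries as independent, so it cannot decide for or against a shift. A change of scaling moves all ratios alike and could not alter the 0.54. The genes called higher in the ZC3H7B library, 5 by reads, numbered 3 with mean reads per cluster (ACVR2B and FOXK1 of the 5, and CBX6), 0 with distinct reads or clusters, and 1 at 95% or 30 clusters. They were 6 by total reads or the point estimate and 7 when centred on well-covered genes. Of the other 826 genes 7.63% were called so by reads, 10.5% by total reads and 12.1% when centred on well-covered genes. By distinct reads the share was 2.06%, by mean reads per cluster 13.6% and by clusters 0%. The 1 gene called higher in the ZC3H7A library became 0 with clusters or at 95%, and 2 by the point estimate alone. By clusters 0.121% of the other 826 genes were called so. ACVR2B turned to -0.10 in clusters. The median conversion in the ZC3H7A library was 100% by the deposited medians and 92.0% by the mean over clusters. The share of the ZC3H7A library was 1.73% in distinct reads, 1.55% in clusters, 1.66% without the tagged genes and 1.59% of all rows, and that of the ZC3H7B library 1.42% in clusters and 1.73% of all rows; without CBX5, left out after seeing the data, they were 1.20% and 1.46%. The alternatives on protein length were not run. No paired analysis was possible because each protein has 1 library and the groups share 1 replicate number.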

Other observations

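Some well-covered genes met the share of 90% in a single library. Of the 37 that met it for ZC3H7A, 7 did not for ZC3H7B, and of the 91 that met it for ZC3H7B, 61 did not for ZC3H7A. These genes were picked by their shares, so the values below are a description. In the 61 genes, coding sequence held 15.6% of ZC3H7A clusters and 4.13% of ZC3H7B clusters, and the 5' UTR 2.52% and 0.190%. LRRC58, with the most reads of them, had 44 of 54 clusters in the 3' UTR for ZC3H7A and 48 of 53 for ZC3H7B, and 12728 and 1526 reads. PEG10, a gene derived from a retrotransposon, had 31 of 38 and 44 of 45, and the forkhead factor gene FOXC1 12 of 16 and 17 of 18.

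In the 7 genes that met the share for ZC3H7A alone, coding sequence held 5.34% of ZC3H7A clusters and 15.3% of ZC3H7B clusters. USP22, a deubiquitinase of the SAGA complex, had 19 of 21 clusters in the 3' UTR for ZC3H7A and 20 of 33 for ZC3H7B, where 12 lay in coding sequence. CELF1, an RNA-binding protein that acts on splicing and messenger RNA decay, had 18 of 20 and 44 of 54, and the kinase gene HIPK1 18 of 19 and 35 of 45. Of these 7 genes, 4 were called higher in the ZC3H7B library and 1 in the ZC3H7A library, and of the 61 genes 9 and 9, with 7.94% and 18.1% called so among the well-covered genes.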
